A study of Saccharomyces cerevisiae with 3 samples.

Results

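This account concerns the change in the polysome to mRNP ratio of yeast mRNAs between the samples named Y10 and Y5. It covers the 4435 genes with a value on both arrays, out of 5574 genes on the array, and it uses 2 of the 3 arrays of the series. Every gene with a value on both arrays was kept whatever that value was, whereas the gene lists used below were written with earlier results of these arrays known. The study followed budding yeast, Saccharomyces cerevisiae, after a sudden move from a sugar it can ferment to a carbon source it cannot. Each sample, Y10, Y5 and G0, was measured on 1 two-colour array with RNA of an mRNP fraction in Cy3 and RNA of a fraction called Poly, read as polysomes, in Cy5. All 3 are annotated with stress and nutrient limitation. The labels do not explain G0, Y5 and Y10 or give a strain, medium or time, so the 3 are used as names and Y10 is taken as the later sample.

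An mRNA on polysomes carries several ribosomes and is being translated, while an mRNA in the mRNP fraction is bound by proteins but not by many ribosomes. Yeast that loses glucose shuts down most translation initiation within minutes, and many mRNAs leave the polysomes. Ribosomal protein and ribosome assembly genes are the classic growth genes of this response, whereas stress, trehalose and glucose transport genes are the classic induced ones.

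A ratio below is the deposited log ratio of a gene, taken as log2, with the median of its array set to 0. A positive value is read as more of the mRNA in the polysome fraction than for the median mRNA of that array. This direction is likely rather than given. It rests on the red-over-green convention of the database that the labels link to and, if G0 was the sample before the move, on GCN4, whose upstream reading frames keep its translation low in fed cells. GCN4 stood at -0.93 on G0, the 5.89 percentile, but the labels do not say that G0 was fed. Every sign below would turn if the ratio ran the other way. Because each array is centred, a shift shared by all mRNAs cannot be seen, and because only ratios were used, less polysomal RNA and more mRNP RNA cannot be told apart.

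With 1 array for each sample there was no spread between replicates and no test, so a fixed size of 1 log2 unit took the place of a test. Genes with 2 spots on both arrays gave the only error. Over 453 such genes the difference from 1 spot had a technical SD of 0.56 log2 units. The 2 differences of a gene correlated at r = 0.20 across these genes, against 0.31 for the 2 ratios on Y10 and 0.53 for those on Y5. Spot error alone passed 1 log2 unit in 6.40% of genes with 2 spots, and 9.59% of the 3494 genes with 1 spot had a difference of that size. Spot error alone can therefore give a difference of 1 log2 unit in a gene with 1 spot.

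The Y10 array was deposited with row numbers that do not match those of the other arrays, so its place on the gene map was inferred. It was read as 32 sectors of 252 spots in place of 276, and the first 16 rows of 12 spots of each were kept. Read in this way, Y10 and Y5 correlated at r = 0.46 across 5971 spots, against 0.02 by deposited number. All 16 kept rows matched best the row of Y5 with the same number. The 5 rows left out matched best rows 19 to 23 of Y5 in turn, the end of the sector, at r = 0.13 to 0.31. In sectors 11, 13 and 14 the rank correlation was only 0.19, 0.10 and 0.27, against 0.41 to 0.78 in the other 29 sectors. The row matching pooled all 32 sectors, so it did not test the place of these 3 alone. Genes from these 3 weak sectors are named as such below.

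**Figure D1:**
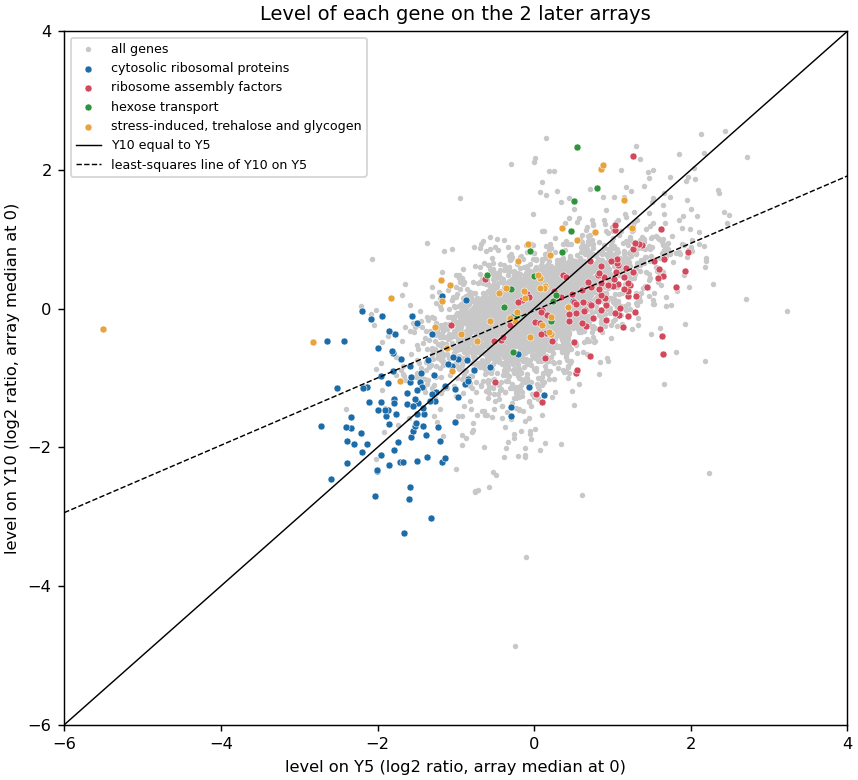
Ratio of each of the 4435 genes on Y10 (vertical axis) against Y5 (horizontal axis), both in log2 units with the array median at 0. Coloured points are the genes of 4 groups of lists; most ribosome assembly factors lie right of 0 and below the line of equal ratios, most ribosomal proteins lie far down and to the left, and the dashed least-squares line has a slope of 0.49.

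Across the 4435 genes the ratios on Y10 and Y5 correlated at r = 0.56 (Spearman 0.54), a description over genes that share 2 arrays. Y10 was the narrower array, with an SD of 0.62 across spots against 0.80 on Y5. On Y10, 167 genes (3.77%) were at least 1 log2 unit higher than on Y5 and 235 (5.30%) at least 1 unit lower, 402 in all (9.06%). The median difference of all genes was 0.01, with 50.3% above 0 and 49.6% below. The 3 weak sectors hold 10.3% of the genes but 30.5% of the higher ones and 17.4% of the lower ones. Without their genes, 116 of 3978 were higher (2.92%) and 194 lower (4.88%).

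Position on the array moved with the counts as well. The 4 sectors whose Y10 median lay furthest below their Y5 median hold 11.1% of the genes and 34.0% of the lower ones. With every sector centred on its own median the counts were 127 higher and 146 lower. The median of Y10 minus that of Y5 ran across sectors from -0.69 in sector 26 to 0.45 in sector 28. Their part in single genes was not tested, so the plot of sector medians is given beside these counts.

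**Figure D2:**
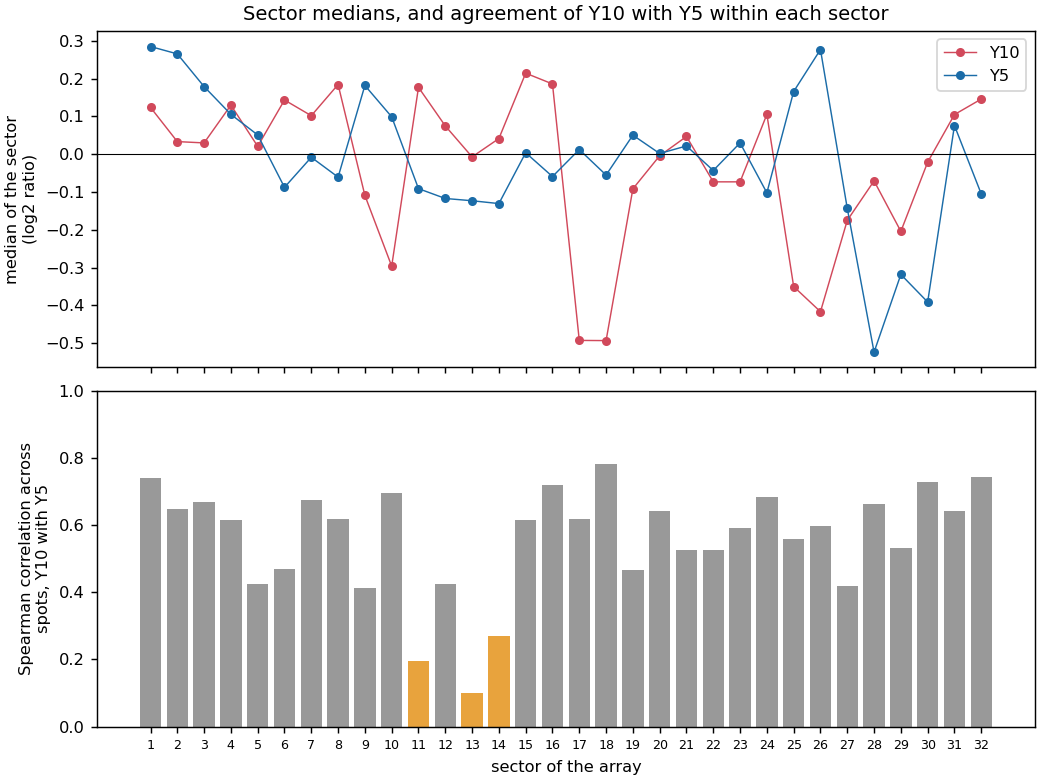
Upper panel, median ratio of the spots in each of the 32 sectors on Y10 and on Y5 (log2 units). Lower panel, Spearman correlation of Y10 with Y5 across the spots of each sector; the 3 orange bars are sectors 11, 13 and 14, and Y10 lies below Y5 by most in sectors 26, 25, 17 and 18.

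Of 34 gene lists, 10 were lower on Y10 than on Y5, 3 were higher and 21 were neither. A list was called when its median difference was at least 0.25 log2 units from 0 and at least 2 in 3 of its measured genes lay on that side. Lower lists were those of ribosome assembly, translation factors, aminoacyl-tRNA synthetases, amino acid and sulfur metabolism, the tricarboxylic acid cycle, the cytosolic chaperonin, and the cell wall. Higher lists were hexose transport, trehalose and glycogen, and stress-induced genes. As a description over genes, the order-statistic 95% interval of the median reached across 0 for 4 of the 13 called lists. It ran from -0.09 to 0.94 for hexose transport, from -0.09 to 0.80 for trehalose and glycogen, from -0.73 to 0.45 for the tricarboxylic acid cycle and from -1.09 to 0.04 for the chaperonin.

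A second reading stands beside each median. It is the distance of a gene from the least-squares line of Y10 on Y5, which has slope 0.49 and intercept -0.03, and its median over all genes was 0.04. The slope falls with scatter between the arrays as well as with the narrower spread of Y10, so this distance does not correct for spread alone. By this distance the 3 higher lists and the elongation list met the same 2 conditions, whereas the other 9 lower lists did not. Scaling both arrays to one spread, which adjusts only the spread, took the call from just the sulfur and cell wall lists. The median was then -0.42 for 40S assembly, -0.49 for 60S assembly and -0.55 for the synthetases. A further check used the deposited numbers of Y10, which put its spots on unrelated genes in every sector but the first. Of the 13 called lists, 7 kept their call even so, among them both ribosome assembly lists, the synthetases and the stress-induced genes. For these the median ratio on Y5 lay on the side that by itself gives a difference of that sign. For the stress-induced genes it was only -0.24, against a median difference of 0.60 by deposited numbers, and what made up the rest was not tested. Hexose transport (-0.06), trehalose and glycogen (0.08) and elongation (0.04) did not keep theirs.

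**Figure D3:**
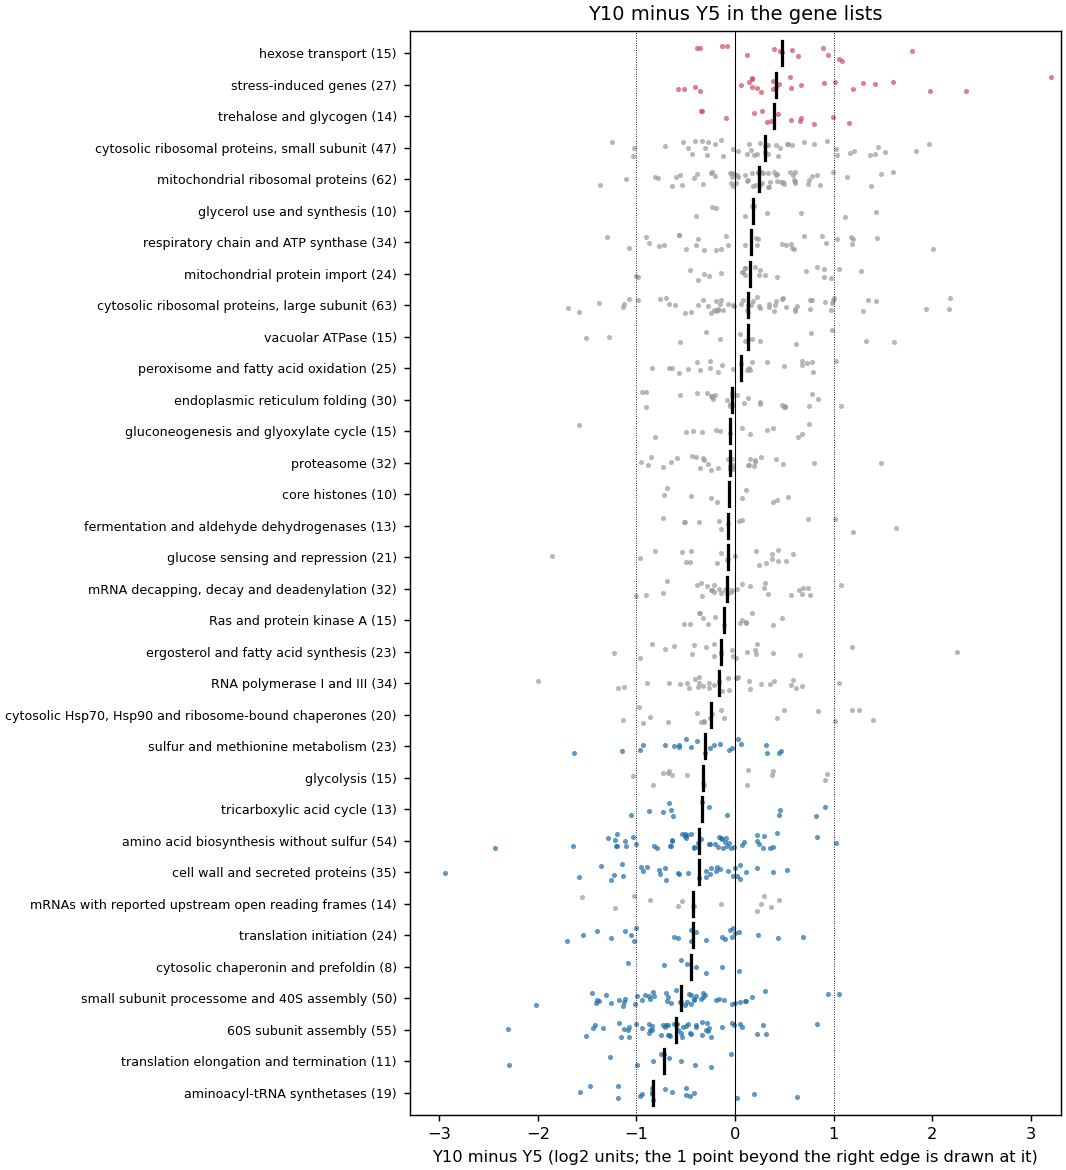
Y10 minus Y5 of each measured gene (points, log2 units) in the 34 lists, with the number of measured genes in parentheses and the list median as a black bar. Red lists were called higher on Y10, blue lists lower and grey lists neither; the medians run from 0.47 for hexose transport to -0.84 for the aminoacyl-tRNA synthetases, and dotted lines mark 1 log2 unit.

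Ribosome assembly factors, which process ribosomal RNA and build the subunits in the nucleolus, were mostly lower on Y10 than on Y5. In the list of the small subunit processome and 40S assembly, 42 of 50 measured genes (69 listed) were below 0, with a median difference of -0.55 against 0.01 for all genes, and 12 were at least 1 unit lower. In the list of 60S assembly, 49 of 55 (72 listed) were below 0 and 12 were at least 1 unit lower, with a median of -0.60. The background for such a gene was 5.30%. The first list had a median ratio of 0.16 for G0, 0.82 for Y5 and 0.29 for Y10, and the second list -0.24 for G0, 0.85 for Y5 and 0.10 for Y10. On Y10, 17 of these 105 genes were in the highest 10% of all genes, against 55 on Y5.

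NOP14, a scaffold protein of the processome, had a ratio of 0.54 on Y10 and 1.92 on Y5, a difference of -1.38. TSR1, a factor of late 40S maturation, had -0.69 on Y10 and 0.72 on Y5, a difference of -1.41. UTP23 stood at -0.92 on Y10 and 0.53 on Y5, a difference of -1.45, and ENP1 at -0.27 on Y10 and 1.13 on Y5, a difference of -1.40. Both of these 40S assembly genes were thus above the array median on Y5 and below it on Y10. SAS10 was lowest of the list at -2.02 (-0.39 on Y10, 1.63 on Y5), but its spot lies in a weak sector. At the other end were UTP14, with 2.20 on Y10 and 1.26 on Y5 (0.94), and NAN1, with 0.42 on Y10 and -0.63 on Y5 (1.05).

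Among 60S factors, NOP13 had 0.30 on Y10 and 1.81 on Y5, a difference of -1.51. RRS1, which brings the 5S particle into the early large subunit, had -1.34 on Y10 and 0.10 on Y5 (-1.44), and YTM1, a partner of NOP7 and ERB1, had -0.88 on Y10 and 0.54 on Y5 (-1.42). SDA1 was lowest at -2.30 (-0.66 on Y10, 1.65 on Y5) and lies in a weak sector. NIP7 ran the other way, with -0.24 on Y10 and -1.07 on Y5, a difference of 0.83. Distance from the line was smaller than the difference for both lists, with medians of -0.14 (33 of 50 genes below the line) and -0.19 (41 of 55 below). For all genes, 45.6% were below the line. The list of RNA polymerases I and III, which transcribe ribosomal and transfer RNA, was neither higher nor lower (median -0.17, 21 of 34 measured below 0, 41 listed).

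Translation factors were lower on Y10 as well. Initiation factors had a median difference of -0.42, with 19 of 24 measured genes (31 listed) below 0 and 8 at least 1 unit lower, against 5.30% of all genes. Without genes of the weak sectors the median was -0.35 and 4 of 18 were at least 1 unit lower. NIP1, a subunit of eIF3, was lowest at -1.70 (-0.75 on Y10, 0.95 on Y5) and lies in a weak sector, as do FUN12, the yeast eIF5B (-1.40; 0.12 on Y10, 1.52 on Y5), and GCN2, the kinase of eIF2 (-1.26; -0.89 on Y10, 0.37 on Y5). Outside them, GCD2, a subunit of the exchange factor eIF2B, had -0.30 on Y10 and 1.24 on Y5 (-1.54), and TIF3, the yeast eIF4B, had 0.89 on Y10 and 2.01 on Y5 (-1.12). TIF4631, an eIF4G, had 0.82 on Y10 and 1.84 on Y5 (-1.02), but its 2 spots differed by -1.55 and -0.50, so the size rests on 1 of them. Of these 3 genes, high on Y5, GCD2 was below the median on Y10 and the others were still well above it. TIF5, the yeast eIF5, had 2 spots that each differed by just over 1 unit downward, 1 of them in a weak sector. At the other end, GCD7, in a weak sector, differed by 0.69, SUI3, the beta subunit of eIF2, by 0.44 and TIF4632 by 0.23.

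All 11 measured genes of elongation and termination (15 listed) were below 0, with a median of -0.72. TEF2, one of a pair of genes for the elongation factor eEF1A, had -1.95 on Y10 and 0.35 on Y5, a difference of -2.30. Its spot lies in sector 17, and TEF2 differed by -1.83 with sector centring. Its near-identical copy TEF1 had -1.47 on Y10 and -0.20 on Y5, a difference of -1.27, and the arrays may not tell the copies apart. TEF1 turned to 1.14 when the spots left out of Y10 were added at the end of each sector, where those rows matched Y5 best. The direction of TEF1 therefore depends on leaving those spots out. HYP2, the elongation factor eIF5A, had -1.21 on Y10 and -0.21 on Y5, a difference just short of 1 unit. The smallest differences were those of EFT1, 1 of 2 near-identical eEF2 genes (-0.41), CAM1 (-0.24) and EFB1 (-0.04). The median distance from the line was -0.30, with 8 of 11 genes below it.

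Aminoacyl-tRNA synthetases, which load amino acids onto transfer RNAs, had the lowest median of the 34 lists at -0.84, with 16 of 19 measured genes (21 listed) below 0 and 4 at least 1 unit lower, against 5.30% of all genes. ILS1, the isoleucine enzyme, had 0.25 on Y10 and 1.82 on Y5, a difference of -1.58. CDC60, the leucine enzyme, had 2 spots, at 0.70 and 0.75 on Y10 and at 2.24 and 2.10 on Y5, so its spots differed by -1.54 and -1.35. VAS1, the valine enzyme, had 0.83 on Y10 and 2.02 on Y5 (-1.19). The 3 were high on Y5 and remained above the array median on Y10. HTS1 (0.02), DED81 (0.19) and ALA1 (0.63), the histidine, asparagine and alanine enzymes, were above 0, although the 2 spots of ALA1 went opposite ways (2.13 and -0.86). The list median was 1.19 for G0, 1.13 for Y5 and 0.34 for Y10, and its median distance from the line was -0.10.

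Cytosolic ribosomal proteins were neither higher nor lower, and they remained at the bottom of both arrays. Of 110 measured genes, 91 were in the lowest 10% of all genes on Y10 and 101 on Y5. The large subunit list (63 of 82 measured) had a median difference of 0.14, with 35 above 0, but -0.31 when both arrays were scaled to one spread. The small subunit list (47 of 57 measured) had a median of 0.30, with 31 above 0, but -0.09 under the same scaling. Their direction therefore depends on the scaling. The small subunit list met the call as higher under sector centring (0.25, 32 of 47 above 0) and with the spots left out of Y10 numbered on (0.32, 36 of 53). By distance from the line both lists met the call as lower, at -0.61 and -0.50, with 90 of the 110 genes below it. The median ratio of the large subunit was -0.03 for G0, -1.57 for Y5 and -1.34 for Y10, and that of the small subunit -0.14 for G0, -1.57 for Y5 and -1.17 for Y10.

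Members of the 2 subunits varied widely among themselves. RPL36A had -0.47 on Y10 and -2.65 on Y5, a difference of 2.18, and RPS10B had -0.47 on Y10 and -2.43 on Y5, a difference of 1.96. RPL41B and RPL41A, a near-identical pair whose readings cannot be kept apart with certainty, differed by 2.17 (spots 2.27 and 2.07) and 1.43 (spots 1.73 and 1.13). At the other end, RPL13A had -3.01 on Y10 and -1.32 on Y5 (-1.70), RPL20B had -3.24 on Y10 and -1.66 on Y5 (-1.58), and RPS6B had -1.55 on Y10 and -0.29 on Y5 (-1.25). RPP0, the stalk protein, differed by -1.38. In all, 7 large subunit genes were at least 1 unit higher and 6 at least 1 unit lower, and 10 small subunit genes were higher and 3 lower, against backgrounds of 3.77% and 5.30%. Without the weak sectors the small subunit had 5 higher genes in place of 10. Many ribosomal protein genes come in near-identical pairs, so single values are uncertain.

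Hexose transport genes were higher on Y10, with a median difference of 0.47, 11 of 15 measured genes (19 listed) above 0 and 3 at least 1 unit higher, against the background of 3.77%. HXT2, a high-affinity transporter made when glucose is low, had 2.33 on Y10 and 0.54 on Y5, a difference of 1.79. HXT6 had spots at 1.88 and 1.24 on Y10 and at 0.57 and 0.45 on Y5, so its spots differed by 1.31 and 0.80. The 2 spots of HXT4, by contrast, went opposite ways (1.345 and -0.439). HXT7, near-identical to HXT6 and not surely told apart from it, had 1.11 on Y10 and 0.47 on Y5 (0.64).

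The low-affinity transporters differed in the same direction, by just under 1 unit. HXT3 had 1.74 on Y10 and 0.80 on Y5 (0.94), and HXT1 had 0.83 on Y10 and -0.06 on Y5 (0.89). HXT11 had 0.48 on Y10 and -0.61 on Y5 (1.08). The glucose sensors SNF3 (-0.09) and RGT2 (-0.13), which resemble transporters, differed by less than the spot error, and HXT17 (-0.39) and HXT15 (-0.36, weak sector) were lowest. The list median was 0.13 for G0, 0.21 for Y5 and 0.47 for Y10. Distance from the line gave 0.50, with 13 of 15 genes above it, so the list stood as far out by this reading.

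**Figure D4:**
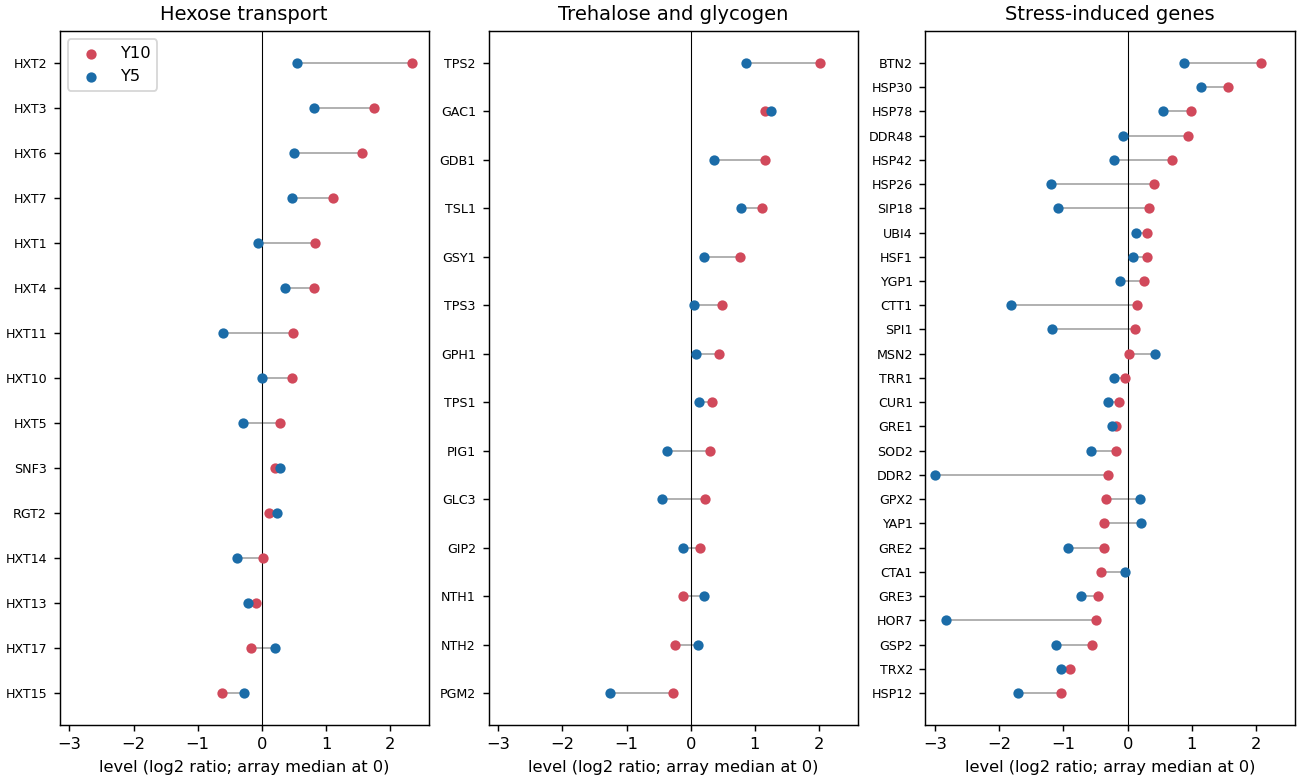
Ratio of each gene on Y10 (red) and on Y5 (blue) in the 3 lists that were higher on Y10, in log2 units with the array median at 0, genes ordered by Y10. Most red points lie right of their blue partners; HXT2, TPS2 and BTN2 lead their lists on Y10, and DDR2, at -5.51 on Y5, is drawn at the left edge.

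In the list of trehalose and glycogen, 2 storage carbohydrates, 11 of 14 measured genes (21 listed) were above 0, with a median of 0.40. TPS2, the phosphatase of trehalose synthesis, had 2.01 on Y10 and 0.86 on Y5, a difference of 1.16, and was the only member at least 1 unit higher. PGM2, a phosphoglucomutase, had -0.27 on Y10 and -1.26 on Y5 (0.99, weak sector), and GDB1, the glycogen debranching enzyme, had 1.16 on Y10 and 0.36 on Y5 (0.80). Synthesis and breakdown genes were mixed on the higher side, since GLC3 (branching, 0.67), GSY1 (glycogen synthase, 0.57), GPH1 (glycogen phosphorylase, 0.36) and TPS1 (trehalose-phosphate synthase, 0.19) were all above 0. Below 0 were the neutral trehalases NTH1 (-0.34) and NTH2 (-0.35), both in weak sectors, and GAC1 (-0.09), a phosphatase subunit. The median distance from the line was 0.48, with 12 of 14 genes above it.

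Stress-induced genes were higher on Y10 in 23 of 27 measured cases (32 listed), with a median of 0.42 and 8 genes at least 1 unit higher, against 3.77% of all genes. DDR2, a small stress protein, had the largest difference of all genes, 5.21, but this rests on 1 spot with -0.30 on Y10 and -5.51 on Y5. HOR7 had -0.49 on Y10 and -2.83 on Y5 (2.34). CTT1, the cytosolic catalase, had 0.15 on Y10 and -1.82 on Y5 (1.97). All 3 were thus far below the array median on Y5. On Y10, where the SD across spots was 0.62, CTT1 was a little above the median and DDR2 and HOR7 were still below it.

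HSP26, a small heat shock protein, had 0.41 on Y10 and -1.19 on Y5 (1.60). SIP18 had 2 spots, which differed by 1.96 and 0.88, and DDR48 had 2, which differed by 1.16 and 0.87. Among other members with 2 spots, HSP78 differed by 0.07 and 0.81 and SOD2 by 0.75 and 0.02, while the spots of UBI4 went opposite ways (-0.60 and 1.10). BTN2, which sorts misfolded proteins, was the highest of the list on Y10 at 2.07, with 0.87 on Y5 (1.20). HSP42 differed by 0.90, HSP12 by 0.67 and HSP30 by 0.42. Of the transcription factors in the list, YAP1 differed by -0.57, MSN2 by -0.41 and HSF1 by 0.22, and GPX2, a peroxidase, by -0.52. Median distance from the line was 0.26, with 19 of 27 genes above it, and no member at least 1 unit higher lay in a weak sector.

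The cytosolic Hsp70, Hsp90 and ribosome-bound chaperones were divided. The list was neither higher nor lower (median -0.25, 13 of 20 measured below 0, 27 listed), and 4 genes were at least 1 unit higher, against 3.77% of all genes. HSP82, the inducible Hsp90, had 1.69 on Y10 and 0.29 on Y5 (1.40), while its near-copy HSC82 differed by -0.14. HSP82 was at -0.02 with the spots left out of Y10 numbered on, a placing in which those rows do not match Y5. SSA4, the inducible Hsp70, had 1.54 on Y10 and 0.35 on Y5 (1.19), and STI1, which links Hsp70 to Hsp90, had 1.72 on Y10 and 0.71 on Y5 (1.01). HCH1, a regulator of Hsp90, had -0.23 on Y10 and -1.49 on Y5 (1.26).

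Lowest of that list were ZUO1 at -1.14, SSA3 at -0.97 and YDJ1 at -0.93, and SSB2, a ribosome-bound Hsp70, stood at -0.32. The chaperonin and prefoldin list, whose complexes fold actin and tubulin, was lower (median -0.44, 7 of 8 measured below 0, 15 listed). CCT6 led it with 0.33 on Y10 and 1.41 on Y5 (-1.09), followed by TCP1 (-0.72) and CCT4 (-0.55), while GIM5 (0.04, weak sector) was above 0. With the spots left out of Y10 added at the sector ends, where those rows matched Y5 best, 12 genes of this list were measured. Their median was -0.23 and the list was no longer called.

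Amino acid biosynthesis without sulfur was lower on Y10, with a median of -0.36, 42 of 54 measured genes (68 listed) below 0 and 11 at least 1 unit lower, against 5.30% of all genes. ARO4, a first-step enzyme of aromatic amino acids, had 0.04 on Y10 and 1.69 on Y5 (-1.65), and LYS4 of the lysine pathway had 0.34 on Y10 and 1.62 on Y5 (-1.29). ARO1, also of the aromatic pathway, had 2 spots that differed by -1.47 and -0.76. LEU1 was lowest (-2.44; -0.62 on Y10, 1.81 on Y5) but lies in a weak sector, and TRP1 (1.02), HIS1 (0.83, weak sector) and HIS2 (0.42) were highest. GCN4, the activator of these genes, had a ratio of -0.23 on Y10 and 1.32 on Y5, a difference of -1.55. Median ratios of the list were 1.11 for G0, 0.48 for Y5 and 0.15 for Y10. With quantile normalization the median was -0.24, and the list was no longer called.

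Sulfur and methionine genes had a median of -0.31 (17 of 23 measured below 0, 36 listed), with MET8 at -1.63, CYS3 at -1.14 and SUL1 at -0.97 lowest and MET32 (0.46), SAM4 (0.44) and MUP3 (0.32, weak sector) highest. Their call was lost under sector centring, scaling and quantile normalization, and their median distance from the line was 0.09. Cell wall and secreted proteins had a median of -0.36 (28 of 35 measured below 0, 50 listed), with 7 at least 1 unit lower, against 5.30% of all genes, or 4 of 29 without the weak sectors. FKS1, the glucan synthase, had 0.60 on Y10 and 2.18 on Y5 (-1.59), while GAS1, a wall glucan enzyme in a weak sector, had -0.76 on Y10 and 2.18 on Y5 (-2.94). GAS3 (-1.36) was also among the 3 lowest. CHS1 (0.52), SED1 (0.38) and GAS4 (0.22) were highest, and the wall protein mRNAs of SED1 and CRH1 stayed near the top of both arrays (2.51 and 2.56 on Y10, 2.13 and 2.44 on Y5). Those 29 genes had a median of -0.26 with 22 below 0, which still met the call. Leaving out only the spots of the weak sectors and centring again gave -0.237 over 31 genes, and the cell wall call was lost. It was also lost with both arrays scaled to one spread (-0.21) and with quantile normalization (-0.24).

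Central carbon genes had no common direction by the main reading. In glycolysis (15 of 21 measured, median -0.33, 9 below 0), HXK2 and HXK1, the hexokinases that admit glucose, were highest at 0.94 and 0.91, followed by PYK2 at 0.39. PFK1 (-1.03), PGI1 (-0.83) and ENO1 (-0.73) were lowest. HXK2 had 1.44 on Y10 and 0.51 on Y5, and PFK1 had 1.39 on Y10 and 2.42 on Y5, so both were high on both arrays. Glycolysis met the call as lower when both arrays were scaled to one spread (-0.28, 10 of 15 below 0) and with the spots left out of Y10 at the sector ends (-0.42, 12 of 18). Median ratios of glycolysis were 1.91 for G0, 0.17 for Y5 and 0.01 for Y10.

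Among fermentation and aldehyde dehydrogenase genes (13 of 14 measured, median -0.07), ALD4, a mitochondrial enzyme of acetate formation, had 0.98 on Y10 and -0.65 on Y5 (1.63). ALD2 (1.20) and ALD6 (1.02, weak sector) followed, while ADH1 (-0.37), ADH4 (-0.51), SFA1 (-0.52, weak sector) and PDC6 (-0.73) were below 0. Of the glycerol genes (10 of 12 measured, median 0.18), GPD1 and GPP2, which make glycerol, differed by 1.43 and 1.11, and GPP2 lies in a weak sector. GUT1 and GUT2, which use glycerol, differed by 0.67 and -0.24, GUT1 from a weak sector. With sector centring the glycerol list met the call as higher (0.32, 8 of 10 above 0). Gluconeogenesis and glyoxylate genes (15 of 22 measured) had a median of -0.05, with ICL1 (0.75), MDH2 (0.68) and FBP1 (0.64) highest and CAT2 (-1.59), MDH3 (-0.81) and ADR1 (-0.50) lowest.

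The tricarboxylic acid cycle list was lower by its median of -0.34 (9 of 13 measured below 0, 19 listed), with IDH1 (-1.06), KGD1 (-0.87) and ACO1 (-0.73) lowest and CIT2 (0.92), IDP1 (0.82), both in weak sectors, and CIT1 (0.45) highest. Without the weak sectors its median was -0.63 over 11 genes, whereas sector centring gave -0.16 and ended the call, as did quantile normalization. The call also ended with the spots left out of Y10 at the sector ends, at -0.095 over 17 genes. The respiratory chain and ATP synthase list was neither (34 of 44 measured, median 0.16, 18 above 0), and 6 genes were at least 1 unit higher, against 3.77% of all genes. ATP15, the small epsilon subunit of the ATP synthase, had -0.07 on Y10 and -2.08 on Y5 (2.01). COX7 had -0.03 on Y10 and -1.46 on Y5 (1.44), and CYC7, the hypoxic cytochrome c, had -0.34 on Y10 and -1.54 on Y5 (1.20). HAP5 (-1.08) and RIP1 (-0.91) were among the lowest, and QCR10 averaged -1.30 from 2 spots that went opposite ways (-3.20 and 0.61).

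Other mitochondrial lists leaned upward without being called by the main reading. Of 62 measured mitochondrial ribosomal proteins (75 listed), 42 were above 0, with a median of 0.24. MRP10 had 2 spots that differed by 1.55 and 1.42, and MRPL33 had 2 that differed by 1.56 and 1.20. MRPL27 was highest at 1.60, from a weak sector, and MRP7 (-1.37), MRPL22 (-1.10) and MRPS35 (-0.81) were lowest. Mitochondrial import genes (24 of 35 measured) had a median of 0.15 with 17 above 0, and they met the call as higher by distance from the line (0.32, 16 of 24 above it) and with quantile normalization (0.33, 17 of 24 above 0).

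Genes with several spots allow a check of spot agreement within the arrays, but not of a difference that a whole sector shares. Of 460 genes with at least 2 spots on both arrays, 16 had all spots at least 0.5 units higher on Y10 and 31 had all spots at least 0.5 units lower. The 10 highest, in order, were RPL41B, MRP10, RPL41A, SIP18, MRPL33, HXT6, DDR48, PAI3, RSO55 and SRT1. PAI3, an inhibitor of vacuolar proteinase A, had -0.15 on Y10 and -0.91 on Y5 (0.77). The 10 lowest were YER138C, ZIP1, CDC60, ADE6, PUS1, CCW14, PNT1, TCB3, PEP1 and ARO1. ADE6, of purine synthesis, had 0.49 on Y10 and 1.91 on Y5 (-1.42), and PUS1, a pseudouridine synthase of tRNA, had -0.01 on Y10 and 1.30 on Y5 (-1.31). YER138C lies in a Ty1 transposon, of which the genome holds many copies, so its reading is not of 1 locus. RPL41B, RSO55, SRT1, YER138C, ZIP1 and CCW14 each have 1 of their spots in a weak sector. Both spots of TCB3 and 1 spot each of PUS1, PNT1 and ZIP1 lie in sector 26, where the median of Y10 minus that of Y5 was -0.69. The spots of ADE6 lie in sectors 10 and 17, where it was -0.395 and -0.505. With sector centring TCB3 differed by -0.47, PUS1 by -0.79, PNT1 by -0.61 and ZIP1 by -1.22. ADE6 (-0.96), ARO1 (-0.97) and PEP1 (-0.87) then fell short of 1 unit, whereas CDC60 (-1.24), CCW14 (-1.45) and YER138C (-1.65) stayed past it.

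The extremes of all genes rest on 1 spot of Y10 each. The 10 highest were DDR2 (5.21), PET122 (2.78), KRE2 (2.54), NNT1 (2.38), HOR7 (2.34), DAD1 (2.32), RTS2 (2.31), ERG2 (2.25), RPL36A (2.18) and GLC8 (2.17), and 7 of the 10 lie in weak sectors, all but DDR2, HOR7 and RPL36A. The 10 lowest were NVJ3 (-4.63), UGA4 (-4.60), PRM6 (-3.48), RXT2 (-3.30), BSC1 (-3.26), GAS1 (-2.94), NCL1 (-2.74), AGX1 (-2.56), LEU1 (-2.44) and SDA1 (-2.30), and RXT2, GAS1, NCL1, LEU1 and SDA1, 5 of the 10, lie in weak sectors. UGA4, the permease for the nitrogen source GABA, had -2.37 on Y10 and 2.24 on Y5. NVJ3 had -4.87 on Y10 and -0.24 on Y5, and AGX1, an enzyme of glycine synthesis, had 0.15 on Y10 and 2.71 on Y5. The spots of NVJ3 and PRM6 were far from the rest on Y10, that of DDR2 on Y5, and those of BSC1 and AGX1 were high on Y5 and near the median on Y10.

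Gene length moved with the difference. Across the 4435 genes, length from start to stop codon, introns included, and Y10 minus Y5 had a Spearman correlation of -0.22. On Y10 the ratio itself correlated with length at 0.34, against 0.48 on Y5. The 888 shortest genes (78 to 705 bases) had a median of -0.19 on Y10 and -0.45 on Y5, with a median difference of 0.22, and the 886 longest (2148 to 14733 bases) had 0.21 on Y10 and 0.34 on Y5, with a median difference of -0.13. Without ribosomal protein genes the correlation was -0.22 over 4325 genes. It was -0.10 with the arrays scaled to one spread and 0.07 for distance from the line. Short genes among the higher ones, such as RPL41A, ATP15 and COX7, and long ones among the lower ones, such as the synthetases, lie on this trend. They are picked examples of a weak trend, and genes that go against it were not counted. The part of length in the list differences was not tested.

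**Figure D5:**
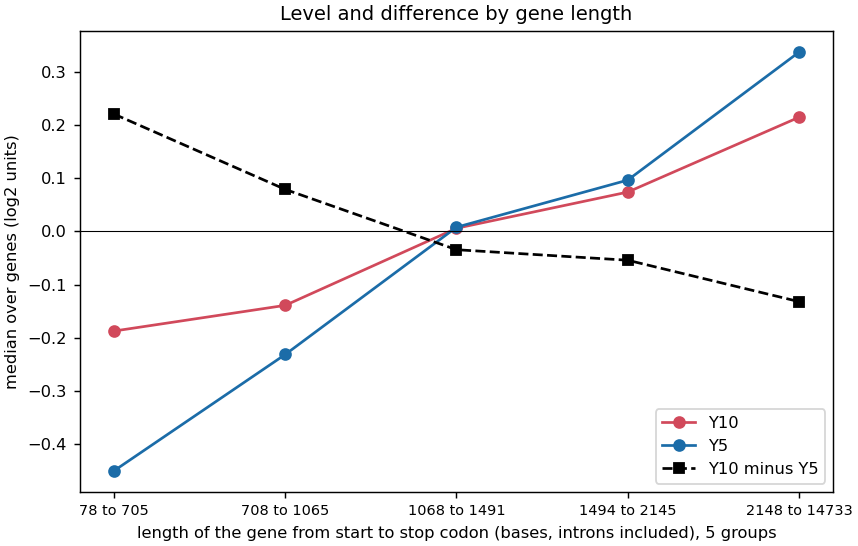
Median ratio on Y10 (red) and on Y5 (blue) and median Y10 minus Y5 (black, dashed), in log2 units, over 5 groups of about equal size of the 4435 genes, ordered by gene length. Both arrays rise from short to long genes, Y5 more steeply than Y10, and the difference runs from 0.22 in the shortest group to -0.13 in the longest.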

How the data were processed

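The authors deposited 1 log ratio per spot for 3 arrays, treated here as log2. The sources used here give neither its base, centring and direction nor scanner settings or spot filters. The medians of the deposited log2 columns were 0.071 on Y10, 0.067 on Y5 and 0.0735 on G0. Of 8832 spots, 6623 carried 1 gene symbol, all matched to the RefSeq gene table. Y10 was renumbered as described, which kept 6008 of its 7822 spots with a value. The 1814 others were left out. Each array was centred on its median, spots of a gene were averaged, and Y10 minus Y5 was taken per gene with Python 3.11.15, pandas 2.3.3, NumPy 2.4.6 and SciPy 1.17.1, after a check on simulated arrays. Depth and signal over background are unknown, and 1 array per sample limits the precision. Genes named are the 10 most extreme on each side, the same among genes with 2 or more agreeing spots, and for the lists described the 3 highest and 3 lowest members or members marked as key. CRH1, ENP1, GCN2, GLC3, GSY1, HSC82, HSF1, HXT1, HXT3, NOP14, SNF3, STI1, TIF3, TIF5 and YTM1 were chosen outside this rule, with their values seen. So were HSP78, SOD2 and UBI4. The members and lists were chosen with earlier results of these data known. Alternatives covered scaling, quantile normalization, sector centring, spot filters, spot numbering and genes with several spots. Distance from the line and leaving out weak sectors were added after the data were seen, as was the placing of the last 60 spots at the sector ends.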

Additional observations from a re-analysis of the deposited data

How the results depend on the processing

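No paired analysis was possible because each sample has 1 array, and leaving out a replicate was not possible either. Apart from deposited numbers, the 3 higher lists and the elongation list kept their call under every alternative that gave them a value, and both assembly lists, initiation and the synthetases under all but distance from the line. By that distance medians were -0.14 (small subunit processome), -0.19 (60S assembly), -0.10 (synthetases), -0.10 (amino acids), 0.092 (sulfur), 0.045 (cell wall), -0.61 (large subunit ribosomal proteins) and -0.50 (small subunit ribosomal proteins), 79 genes were higher and 153 lower, and PFK1 (0.24), CYS3 (0.16) and CCW14 (0.073) turned positive. Scaled to one spread, the ribosomal protein medians were -0.31 and -0.090, and sector centring left 146 lower genes. Among genes with 2 or more spots, 8 were higher and 18 lower, and medians were -0.30 (60S assembly), 0.14 (RNA polymerases I and III), -0.36 (Ras and protein kinase A) and 0.78 (mitochondrial ribosomal proteins). With the last 60 spots numbered on, 261 genes were higher, 347 were lower and HSP82 was -0.024. With them at the sector ends TEF1 was 1.14.

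By deposited numbers, which put Y10 spots outside the first sector on other genes, 574 genes were higher and 617 lower. Medians were then 0.04 (elongation), -1.07 (synthetases), -0.061 (hexose transport), -0.40 (Ras and protein kinase A), 0.27 (endoplasmic reticulum folding), 1.60 and 1.42 (large and small subunit ribosomal proteins) and 0.50 (mitochondrial ribosomal proteins). Single genes that turned were RPB8 (0.78), TEF1 (0.36), HXT2 (-1.67), HXT6 (-0.76), BTN2 (-0.63), HSP82 (-0.67), SSA4 (-0.88), GPP2 (-0.25), CAT2 (0.03), HAP5 (0.26), TRP1 (-0.66), RPL20B (2.21), RPL7A (0.63), RPS6B (0.34), NVJ3 (1.12), RXT2 (1.83), NNT1 (-0.059) and ZIP1 (0.42). The cause was not tested for the other settings. Depth is unknown.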

Other observations

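Lists not described above were neither higher nor lower on Y10 by the main reading. The proteasome had 21 of 32 measured genes below 0 with a median of -0.05, but RPN4, the transcription factor of proteasome genes, had 0.49 on Y10 and -0.99 on Y5, a difference of 1.48. Glucose sensing and repression genes had a median of -0.07 over 21 genes, with the corepressor TUP1 at -1.85 (weak sector) and the repressor MIG1 at 0.59. Genes of Ras and protein kinase A, which signal glucose to growth, all lay within 1 unit, from -0.52 for CDC25 to 0.47 for RAS2, and the list met the call as lower with the spots left out of Y10 numbered on (-0.27) and over 6 genes with 2 or more spots (-0.36). In the vacuolar ATPase (15 measured, median 0.13), VMA1 had 0.69 on Y10 and 2.20 on Y5 (-1.51), VPH1 differed by -1.28, and VMA3 (1.61, weak sector) and VMA7 (1.33) were highest.

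Endoplasmic reticulum folding genes had a median of -0.03 over 30 genes, and HAC1, whose mRNA is held back from translation until it is spliced, had -0.74 on Y10 and -1.50 on Y5 (0.75). Genes of mRNA decay had a median of -0.08 over 32 genes, ergosterol and fatty acid synthesis -0.14 over 23 (-0.29 over 6 with 2 or more spots, called lower), core histones -0.06 over 10, and peroxisome and fatty acid oxidation 0.06 over 25. Of 14 measured mRNAs with reported upstream open reading frames, GCN4 (-1.55), CLN3 (-1.22, weak sector) and TIF4631 (-1.02) were at least 1 unit lower, and the median was -0.42 with 9 below 0, or -0.55 over 17 genes, called lower, with the spots left out of Y10 numbered on.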
